A study of Mus musculus with 4 samples.

Results

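The E2F transcription factors and the retinoblastoma proteins were described in Dalton's lymphoma ascites (DLA) cells, a transplantable mouse tumour that grows in the fluid of the peritoneal cavity. The members were E2f1 to E2f8, Rb1 and Rbl1, and every probe set that the platform's annotation pairs with one of these symbols was used. This gave 11 probe sets of 35556 on the array, and all 10 genes were among the 19938 genes tested. The irradiated group consisted of cells from male Swiss albino mice aged 4 to 5 months that carried DLA cells and received 2 Gy of electrons over the whole body on day 8 after transplantation. The control group consisted of cells from mice that carried the same tumour and were not irradiated. Collection followed 48 h after the irradiation, and each group had 2 one-colour arrays labelled as biological replicates. Because the whole animal was exposed, tumour cells and any host cells in the ascites were irradiated together. The labels do not say whether an array stands for 1 mouse or for several, so p-values measure the spread between these samples.

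E2F proteins bind the promoters of genes for DNA synthesis and cell division, most of them as a dimer with a DP protein. E2F1, E2F2 and E2F3 are known as activators, E2F4 and E2F5 as repressors that work through the pocket proteins p107 and p130, and E2F6, E2F7 and E2F8 as repressors that need no pocket protein. The pocket proteins RB, encoded by Rb1, and p107, encoded by Rbl1, hold E2Fs inactive until cyclin-dependent kinases phosphorylate them. Several E2F and pocket protein genes are themselves textbook E2F targets, among them E2f1, E2f7, E2f8 and Rbl1, which closes feedback loops around the transition into S phase.

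Promoter sequences are shown for the 2 members with the largest differences between the groups, Rbl1 and E2f8, for E2f7, the closest relative of E2f8, and for E2f3, whose window holds matches of both kinds. Each is the 200 bases before an annotated transcript start in RefSeq, build GRCm38.p6, read 5′ to 3′ on the gene's strand. Capitals mark matches on either strand to an E2F site (TTTCCCGC, TTTGGCGC, TTTCGCGC or TTTGCCGC) or to the cell cycle genes homology region, CHR (TTTGAA or TTCGAA), an element of genes expressed in G2 and M phase.
Rbl1: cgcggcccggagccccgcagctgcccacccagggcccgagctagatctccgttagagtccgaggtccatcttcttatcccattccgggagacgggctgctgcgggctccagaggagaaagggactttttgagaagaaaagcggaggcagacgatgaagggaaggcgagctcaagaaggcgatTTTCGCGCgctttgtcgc
E2f8: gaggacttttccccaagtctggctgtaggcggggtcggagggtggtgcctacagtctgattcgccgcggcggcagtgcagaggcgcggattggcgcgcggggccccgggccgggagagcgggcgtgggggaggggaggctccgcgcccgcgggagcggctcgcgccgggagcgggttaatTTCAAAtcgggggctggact
E2f7: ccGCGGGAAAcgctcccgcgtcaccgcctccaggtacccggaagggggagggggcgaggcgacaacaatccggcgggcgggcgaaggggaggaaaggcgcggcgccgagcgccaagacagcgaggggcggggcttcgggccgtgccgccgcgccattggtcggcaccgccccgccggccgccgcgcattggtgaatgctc
E2f3: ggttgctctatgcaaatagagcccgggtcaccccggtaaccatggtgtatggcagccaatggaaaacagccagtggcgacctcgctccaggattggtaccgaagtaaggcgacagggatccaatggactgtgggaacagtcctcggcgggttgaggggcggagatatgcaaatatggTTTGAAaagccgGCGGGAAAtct
The Rbl1 sequence lies at chr2:157204535-157204734 on the minus strand, the E2f8 sequence at chr7:48881597-48881796 on the minus strand, the E2f7 sequence at chr10:110745239-110745438 on the plus strand, and the E2f3 sequence, from the first of 2 starts, at chr13:29986064-29986263 on the minus strand. Counted from the start, Rbl1 held an E2F site beginning at base −18 and no CHR. E2f8 held a CHR beginning at base −20 and no E2F site of these letters. The annotated E2f8 gene reaches further upstream, to chr7:48882073, so this start is not its outermost one. E2f7 held an E2F site beginning at base −198, and E2f3 held a CHR and an E2F site beginning at bases −23 and −11.

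**Figure D1:**
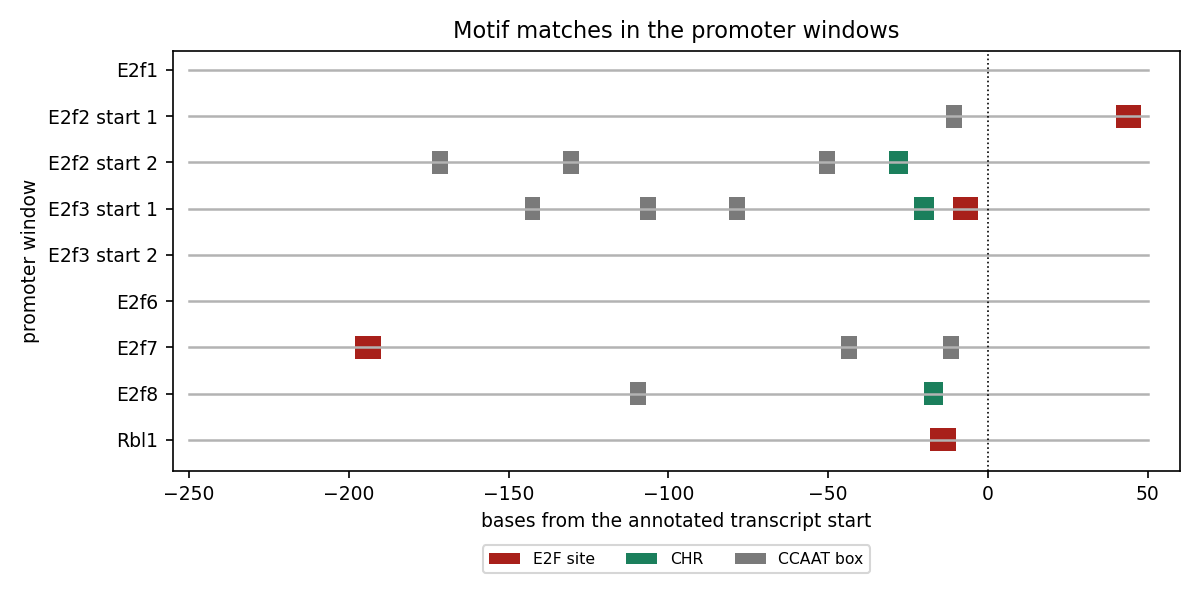
Motif matches in the 9 RefSeq windows found for 7 members, each running from 250 bases before to 50 bases after an annotated start (x axis, bases from the start). Red blocks are E2F sites, green blocks CHR elements and grey blocks CCAAT boxes; Rbl1 has an E2F site alone, and E2f8 has a CHR and a CCAAT box.

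Over these windows of 300 bases, which reach past the start, 4 of the 7 members found in the table (E2f2, E2f3, E2f7 and Rbl1) held an E2F site, against 2.6% of the 27025 genes with a window in the table. A CHR was present in 3 of the 7 (E2f2, E2f3 and E2f8), against 21.7% of these genes. The CCAAT box, the binding motif of the factor NF-Y, was found in 4 of the 7 (E2f2, E2f3, E2f7 and E2f8), against 41.1%. Counted by window, the motifs were present in 2.26%, 19.2% and 37.4% of all 32851 windows. E2f4, E2f5 and Rb1 had no entry in the table. A match describes the letters in the window and was not tested as a binding site.

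The deposited values are RMA log2 intensities, and the array medians lay between 6.43 and 6.46. The irradiated arrays differed from each other more than the control arrays did, with an SD of the difference over all genes of 0.362 between irradiated and 0.167 between control arrays. The label of a lymphoma was set against lymphocyte markers. Of the T cell markers, 10 of 11 lay below the median of all tested genes, and so did 7 of 7 B cell markers. The 14 pan-leukocyte markers were split, with 8 below that median and 6 at or above it. Cd3e, a subunit of the T cell receptor complex, measured 6.17 and 6.01 in irradiated and 6.23 and 6.35 in control arrays. In contrast, 7 of 9 epithelial markers lay at or above that median, and the keratin Krt8 measured 13.93 and 13.30 in irradiated and 14.07 and 14.11 in control arrays. Krt8 was the brightest of the 9, at percentile 99.9 of the mean levels of all tested genes. Cdh1 and Cldn7 lay below that median, at percentiles 41.5 and 32.7, where Cd3e was at 42.4. The 7 mesothelial markers, a list that shares Krt19 with the epithelial one, had a median percentile of 42.8. Brightness also depends on the probes, so these positions are a description.

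Of the 10 members, Rbl1 and E2f8 passed an unadjusted p of 0.05 in limma, both higher in irradiated cells, and 0 passed after Benjamini-Hochberg adjustment over all genes. Over all genes 10.3% passed the unadjusted threshold, 5.21% as higher and 5.1% as lower in irradiated cells, and 0.005% passed the adjusted one. The 2 irradiated arrays lay outside the range of the 2 control arrays for 5 of the 10 members, with Rbl1, E2f8 and E2f3 higher and E2f5 and E2f6 lower. This share is near the 41.7% of all genes whose groups did not overlap, 17.8% as higher and 23.9% as lower. A positive difference was seen for 6 of the 10 members and for 43.4% of all genes. The median difference over the 10 members was 0.10 on the log2 scale, against −0.03 over all genes. In bulk RNA, a change in the share of cells that express a gene and a change in RNA per cell cannot be told apart.

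**Figure D2:**
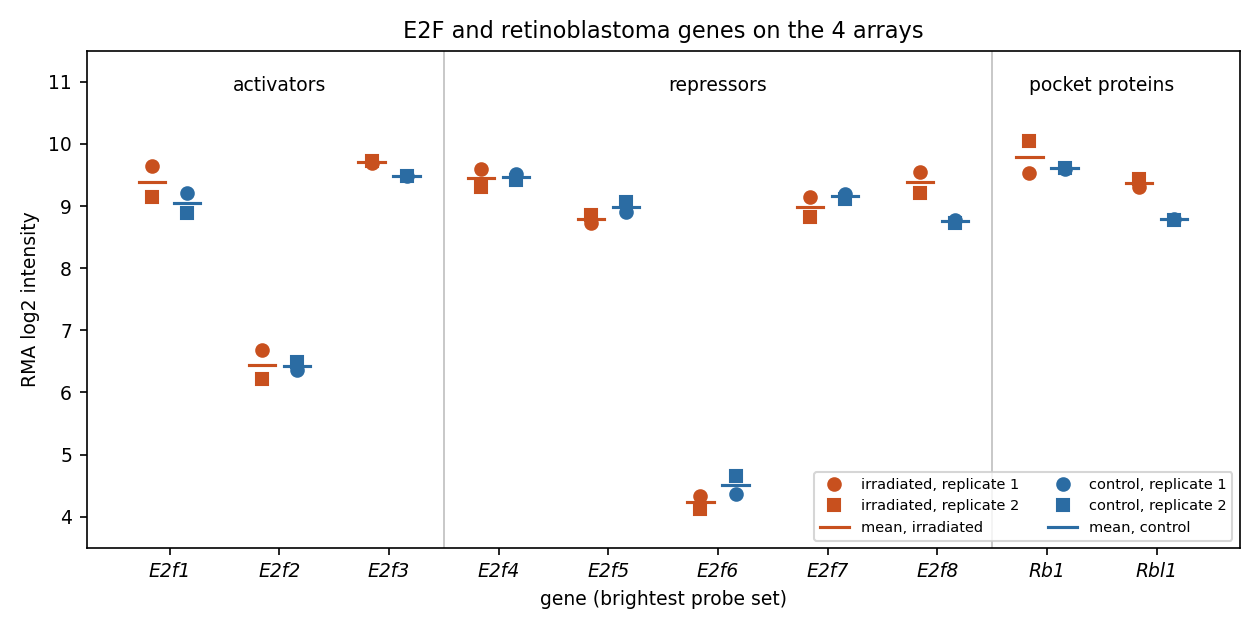
RMA log2 intensity (y axis) of the 10 genes on each array, with irradiated arrays in orange to the left of control arrays in blue, circles for replicate 1, squares for replicate 2 and lines for the means. Rbl1 and E2f8 have both irradiated arrays above both control arrays, while E2f4 and E2f7 overlap; levels of different genes are not comparable.

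Among the activators, E2f1 measured 9.64 and 9.15 in irradiated arrays, against 9.21 and 8.89 in control arrays. The second irradiated array lay below the first control array, so the groups overlapped. The difference was 0.35 ± 0.21 on the log2 scale (standard error), which is 1.27-fold, and limma gave an adjusted p of 0.607. E2f2, an activator best known from blood cells, measured 6.69 and 6.21 in irradiated and 6.36 and 6.49 in control arrays. The control values sat between the irradiated ones, and the difference was 0.03 ± 0.19 (standard error, limma adjusted p = 0.977). E2f3 was measured by 2 probe sets, neither of which can be assigned here to one of its isoforms. The brighter one gave 9.69 and 9.72 in irradiated and 9.48 and 9.48 in control arrays, and the dimmer one 7.91 and 8.45 in irradiated and 7.68 and 7.79 in control arrays. On both probe sets of E2f3 the irradiated arrays were above the controls, by 0.23 and 0.45 on the log2 scale. Neither passed the unadjusted threshold, with a limma p of 0.0898 for the brighter and 0.0788 for the dimmer when each probe set was a row of its own.

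Among the repressors that act through pocket proteins, E2f4 measured 9.59 and 9.31 in irradiated and 9.51 and 9.42 in control arrays. Its difference was −0.02 with a 95% interval from −0.37 to 0.34 in limma, and its sign turned to 0.02 when the arrays were centred on their medians. E2f5 measured 8.72 and 8.86 in irradiated arrays, against 8.90 and 9.06 in control arrays. Both irradiated values of E2f5 were below both control values, by 0.19 on average (limma adjusted p = 0.638). E2f6, which recruits a Polycomb complex to genes of the germ line, measured 4.33 and 4.13 in irradiated and 4.36 and 4.66 in control arrays. Its difference was −0.28 (limma adjusted p = 0.580). Its probe set was among the dimmest 9.89% of tested genes, where RMA compresses differences.

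The atypical pair E2f7 and E2f8 gave unlike values. These E2Fs bind DNA without a DP partner and are known in mouse for their roles in polyploid cells of the placenta and liver. E2f8 measured 9.55 and 9.21 in irradiated arrays, against 8.78 and 8.73 in control arrays. Both irradiated arrays were above both controls, the difference was 0.63 with a standard error of 0.15, which is 1.54-fold, and limma gave an unadjusted p of 0.00740 and an adjusted p of 0.372. E2f7 measured 9.14 and 8.83 in irradiated and 9.20 and 9.11 in control arrays, an average difference of −0.17 with overlapping groups (limma adjusted p = 0.713). Within each array, E2f8 minus E2f7 was 0.41 and 0.38 in irradiated arrays and −0.42 and −0.38 in control arrays. This log ratio differed by 0.80 between the groups while the 2 arrays of a group lay within 0.04 of each other. The pair was chosen after its values were seen, so no test is given.

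Of the pocket protein genes, Rbl1 had the smallest p of the 10 members. It measured 9.30 and 9.43 in irradiated arrays, against 8.80 and 8.77 in control arrays. The groups were well apart, with a difference of 0.58, a standard error of 0.12 and a fold of 1.49 (limma unadjusted p = 0.00328, adjusted p = 0.318). Rb1 measured 9.53 and 10.04 in irradiated and 9.60 and 9.61 in control arrays. Only irradiated replicate 2 stood above the controls, and the difference of Rb1 was 0.18 with a 95% interval from −0.29 to 0.65 in limma. Rbl2, which encodes the third pocket protein p130 and is not among the 10 members, measured 8.65 and 8.80 in irradiated and 8.54 and 8.67 in control arrays (difference 0.12, limma adjusted p = 0.759). Within each array, Rbl1 minus Rbl2 was 0.65 and 0.63 in irradiated and 0.26 and 0.10 in control arrays, a description of a pair picked after its values were known.

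**Figure D3:**
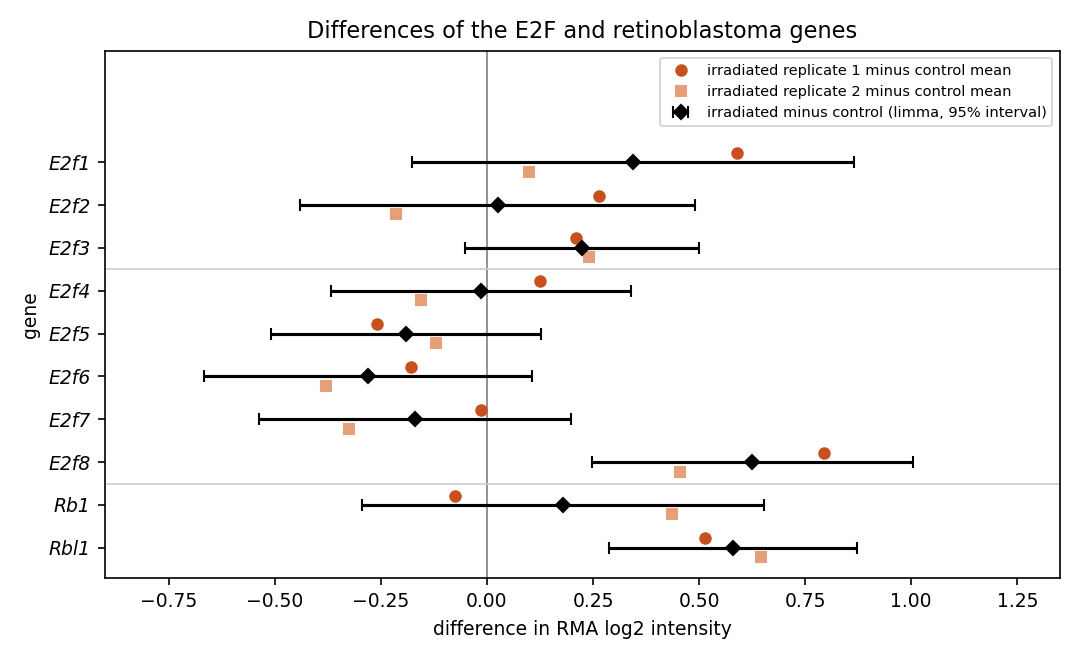
Irradiated minus control in RMA log2 intensity (x axis) for each gene, with black diamonds and bars for the limma estimate and its 95% interval, and orange circles and light squares for irradiated replicates 1 and 2 against the control mean. The intervals of E2f8 and Rbl1 lie above 0, and the replicates of Rb1, E2f2 and E2f4 lie on opposite sides of 0.

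Activators and repressors were then set against each other. The median difference was 0.23 on the log2 scale over the 3 activators, all 3 positive with all 4 arrays. E2f2 turned to −0.22 when irradiated replicate 1 was left out and to −0.04 when control replicate 1 was. Over the 5 repressors the median was −0.17, and with all 4 arrays E2f8 alone was positive. E2f4 turned to 0.02 with arrays centred on their medians, to 0.125 without irradiated replicate 2 and to 0.03 without control replicate 1. As means, the activators were higher by 0.20 and the repressors differed by −0.01. The activator mean minus the repressor mean, relative to its level in the control arrays, was 0.26 and 0.15 in irradiated replicates 1 and 2 and 0.05 and −0.05 in the controls. The irradiated arrays were above the controls by 0.20 on average, and no p is given for a score over genes chosen with results known. The gap of 0.20 was 0.36 with E2f8 left out of the repressors and 0.16 with E2f7 left out, 2 settings added after the values were seen. Without irradiated replicate 1 the activator median was 0.10, and without irradiated replicate 2 the repressor median was −0.02.

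The members also differed in how they varied between the irradiated arrays. Replicate 1 was above replicate 2 for 6 members, namely E2f1, E2f2, E2f4, E2f6, E2f7 and E2f8, and replicate 2 was above replicate 1 for E2f3, E2f5, Rb1 and Rbl1. The gap exceeded 0.25 for 6 of the 10 members, against 39.7% of all genes. It was largest for Rb1, at −0.51, and for E2f1 and E2f2, at 0.49 and 0.48. Rbl1 and the brighter probe set of E2f3 had gaps of −0.13 and −0.03, and their irradiated arrays stood 0.52 and 0.65, and 0.21 and 0.24, above the control mean. For E2f8 these values were 0.80 in replicate 1 and 0.46 in replicate 2. Leaving out irradiated replicate 1, which leaves the spread to the control arrays, brought 5 members past the unadjusted threshold, and leaving out a control array left 1, Rbl1, with E2f8 at a limma p of 0.0554 without control replicate 1 and 0.0685 without control replicate 2. The count over all genes moved the same way, to 5924 without irradiated replicate 1 and to 381 and 410 without control replicates 1 and 2.

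The partners and regulators of the family were set beside all genes, of which 10.3% passed the unadjusted limma threshold. With lists this short, the counts are a description. The DP partner Tfdp1 measured 9.53 and 9.61 in irradiated arrays, against 9.19 and 9.37 in control arrays, with both irradiated arrays above both controls (difference 0.29, limma unadjusted p = 0.0631). Tfdp2 differed by 0.05. The MuvB core joins E2F4 and p107 or p130 in the DREAM repressor complex. In the list of its subunits, MYB partners and the kinase gene Dyrk1a, 0 of 8 genes passed. Lin54, Lin37, Lin9 and Mybl2 had the smallest p of that list, with differences of 0.24, −0.37, 0.24 and 0.27. Of 15 measured cyclins, kinases and inhibitors that act on the pocket proteins, Ccne2 passed as higher and 14 did not pass. The inhibitor gene Cdkn1a was listed beside these 15 but was not among the genes tested. Ccne2, encoding cyclin E2 and also on the target list, had a difference of 0.63. Ccne2 was uneven, with 8.00 and 8.72 in irradiated and 7.72 and 7.74 in control arrays. Cdkn2d, Cdkn1c and Ccnd3 followed with differences of 0.32, 0.26 and 0.19.

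Among corepressors that pocket proteins recruit, 4 of 12 genes passed the unadjusted limma threshold as higher and 0 as lower, against 5.21% and 5.1% of all genes. The maintenance DNA methyltransferase Dnmt1, which is also on the target list, measured 10.86 and 10.51 in irradiated and 10.07 and 10.02 in control arrays, a fold of 1.56. The histone deacetylase Hdac1 was higher by 0.45, the scaffold Sin3b by 0.44 and the chromatin remodeller Smarca2 by 0.39. The paralogues Hdac2 and Sin3a differed by −0.07 and 0.05. Of the partners of E2F6 in its Polycomb complex, 9 of 12 had a negative difference, against 55.4% of all genes, with a median of −0.14. Of these Mga, which tethers the complex to DNA, passed as lower, with 9.54 and 9.87 in irradiated and 10.13 and 10.09 in control arrays (limma unadjusted p = 0.0378, adjusted p = 0.460), and Hdac1, which both lists hold, as higher. Rybp and Pcgf6 had differences of −0.26 and −0.23 and did not pass.

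The lists of E2F targets of the G1/S transition and of G2/M genes had larger median differences than the 10 members. Control of these genes by E2F was not tested in these cells. Of 53 measured E2F targets of the G1/S transition, 48 were higher in irradiated cells and 25 passed the unadjusted limma threshold as higher, against 5.21% of all genes, while 0 passed as lower. Their median was 0.37 on the log2 scale, and both E2f8 (0.63) and Rbl1 (0.58) lay above it, whereas E2f1 (0.35) did not. Those with the smallest p were Orc1, a subunit of the origin recognition complex, Pola1, the catalytic subunit of polymerase alpha, Rrm2, of ribonucleotide reductase, and the flap endonuclease Fen1. Orc1 measured 8.70 and 8.75 in irradiated and 7.90 and 8.00 in control arrays, and Rrm2 measured 11.80 and 11.33 in irradiated and 10.60 and 10.60 in control arrays. Other classical targets did not pass, among them Pcna (0.16), Mcm6 (0.11), Ccna2 (0.19) and Cdc25a (0.04). Of 29 measured G2/M genes that DREAM represses in resting cells, 29 were higher, 23 passed as higher and the median was 0.67. The medians were 0.48 for G1/S and 0.89 for G2/M genes in irradiated replicate 1 against the control mean, and 0.24 and 0.40 in irradiated replicate 2. Without control replicates 1 and 2 the counts past the threshold were 4 and 5 for G1/S and 10 and 12 for G2/M genes, and without irradiated replicates 1 and 2 they were 21 and 37 for G1/S and 19 and 28 for G2/M genes.

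**Figure D4:**
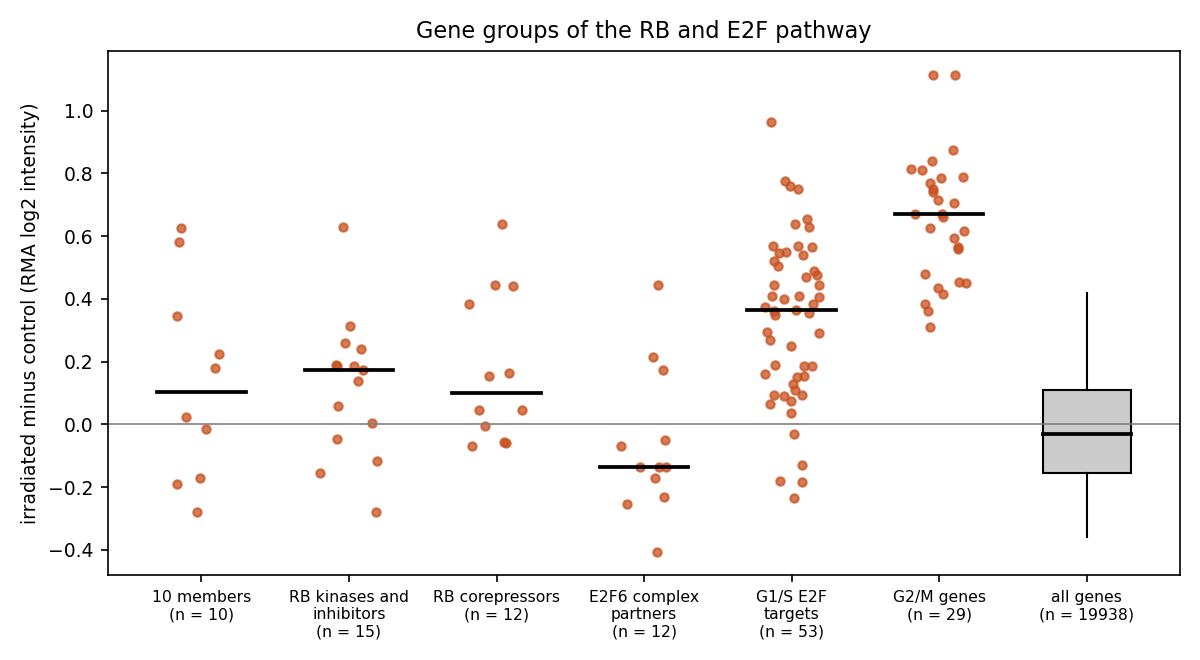
Irradiated minus control in RMA log2 intensity (y axis) for each gene of the pathway groups (orange points, thick lines are medians), beside all tested genes (grey box from the 25th to the 75th percentile, whiskers from the 5th to the 95th). The median of the 10 members is 0.10, below those of the G1/S targets at 0.37 and of the G2/M genes at 0.67.

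The promoter letters differed in frequency between the lists of cell cycle genes. Of 44 G1/S targets found in the promoter table, 43.2% held an E2F site and 18.2% a CHR, whereas of 25 G2/M genes 8.0% held an E2F site and 80.0% a CHR. Over all genes with a window these shares were 2.6% and 21.7%. The Rbl1 window held the motif that was more frequent in the first group and the E2f8 window the one more frequent in the second. E2f7 also held an E2F site, with a difference of −0.17. E2f2 and E2f3 held both motifs in their windows, with differences of 0.03 and 0.23. A link between motif and difference was not tested for the members. Among the G1/S targets the median log2 difference was 0.38 for the 19 with a site and 0.40 for the 25 without. Over all 543 tested genes with an E2F site the median difference was 0.00, against −0.03 for the 15614 tested genes with a window. Of these 543 genes 10.7% passed the unadjusted limma threshold as higher and 3.5% as lower, against 5.38% and 4.97% of all with a window. For the 518 of them outside the members and the G1/S and G2/M lists, the shares were 9.07% and 3.67%.

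Markers of other cells also differed on these arrays. In the neutrophil list 13 of 15 genes were lower in irradiated cells, and 7 passed the unadjusted limma threshold as lower and 1 as higher. Over all genes 5.1% passed as lower and 5.21% as higher, and 55.4% had a negative difference. Retnlg, Il1r2 and Cxcr2 differed by −2.60, −1.23 and −1.16 on the log2 scale. The summed linear intensity of the list was 1606 and 2431 in irradiated and 1575 and 1752 in control arrays, with Mmp9 the brightest member in irradiated replicate 1 (9.86) and Lcn2 in irradiated replicate 2 (10.27). In the pan-leukocyte list 9 of 14 genes were lower, and Srgn (−1.51) and Cd52 (−0.76) passed as lower and Lcp1 (0.63) as higher. Its summed intensities ran opposite to that count, at 7137 and 6618 in irradiated and 5754 and 6268 in control arrays, with Lcp1 the brightest member at 11.78 and 11.96 in irradiated and 11.19 and 11.30 in control arrays. Epithelial markers were lower for 7 of 9 genes, with sums of 34747 and 23036 in irradiated and 42500 and 42000 in control arrays. The 4 probe sets that list several adult globin genes measured 5.65 to 6.45 in irradiated and 9.27 to 11.21 in control arrays. Of 7 other erythroid genes measured, 5 were lower, and of these Alas2 (−0.695) and Klf1 (−0.32) passed as lower. The other 2 were higher, Tfrc by 0.44 and Slc4a1 by 0.195, and did not pass. Macrophage markers were split, with 7 of 14 higher and 7 lower, and 2 passed in each direction. The part of these markers in the values of E2f8, Rbl1 and the target lists was not tested.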

How the data were processed

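The deposited values were log2 intensities per probe set, made by the authors with RMA, per the submitters' processing notes (version, genome build and annotation not given in the sources used here). Labelling used 300 ng of total RNA, per the labels' protocols. RMA gives the arrays a common distribution, which hides any shift common to most genes.

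Gene names came from GEO's platform annotation, brought up to date by Entrez identifier in the RefSeq table of GRCm38.p6. Of 35556 probe sets, 21789 had 1 symbol, 1621 several and 12146 were unlisted. The brightest probe set of each gene was kept, leaving 19938 genes. Irradiated and control arrays were compared with limma 3.58.1 in R 4.3.3 (lmFit, eBayes, two-sided, Benjamini-Hochberg over all genes, threshold 0.05), with 2 residual and 3.48 prior degrees of freedom. The procedure was tested on simulated data with shifts of 2 on the log2 scale and the same variance in both groups. Those shifts exceed every member's difference, so detection at the sizes of the members was not tested. The replicate numbers were not used to pair the arrays in the main fit (correlation of deviations 0.068). Whether arrays with the same number shared a day or batch was not tested. The members and lists were chosen with earlier results of these data known. All members were named, and of each list up to 4 genes with the smallest p; others were chosen after their values were seen. No scan dates were used, and 2 arrays per group limit the precision.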

Additional observations from a re-analysis of the deposited data

How the results depend on the processing

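The values were recomputed in 13 alternatives each, fewer for E2f2 and E2f6, which filters on dim genes removed. The activator mean minus the repressor mean ran from 0.14 to 0.26, and was 0.36 with E2f8 left out of the repressors. Rbl1 stayed past the unadjusted limma threshold in all 13, with differences from 0.52 to 0.65 and adjusted p-values from 0.125 to 0.998. E2f8 ran from 0.46 to 0.80 and missed that threshold without either control array. With every annotated probe set as a row, 6 rows passed the adjusted threshold, a count of probe sets and not of genes. With the replicate number as a block, 0 genes passed it, and 1705 genes and 2 members passed the unadjusted one. Leaving out 1 array at a time gave 0 to 0 genes past the adjusted threshold, 381 to 5924 past the unadjusted one, 1 to 5 members, activator medians of 0.10 to 0.27 and repressor medians of −0.155 to −0.015. It also gave 4 to 37 G1/S targets and 10 to 28 G2/M genes, counts added after the data were seen. The sign of E2f4 turned with arrays centred (0.02). With 1 array left out, differences crossed 0 for E2f4 (−0.155 to 0.125), E2f2 (−0.215 to 0.265) and Rb1 (−0.075 to 0.435). A lone array of a group was assumed to vary like the other group. The causes were not tested. With 2 arrays per group, a member's 95% interval spans at least 0.55 on the log2 scale.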

Other observations

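Targets of E2F1 in apoptosis and targets of E2F6 in the germ line had no member past the unadjusted limma threshold, where 10.3% of all genes passed. Of 8 apoptosis genes 4 were higher and 4 lower in irradiated cells, with a median of 0.02 on the log2 scale. Bcl2l11, encoding the BH3 protein BIM, measured 8.04 and 8.34 in irradiated and 7.90 and 7.85 in control arrays, and Casp8, Bbc3 and Map3k5 had differences of 0.18, −0.14 and 0.10. Of 7 germ line genes 3 were higher and 4 lower, with a median of −0.05. Stag3, a meiotic cohesin subunit, measured 9.21 and 8.90 in irradiated and 9.24 and 9.27 in control arrays. Tuba3a, Tuba3b and Smc1b had differences of 0.15, 0.24 and −0.20, and signal shared by the near-identical tubulin genes cannot be told apart.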
